A study of Mus musculus with 14 samples.

Results

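The chemokine receptors of lung group 2 innate lymphoid cells (ILC2s) were described across 14 RNA-seq libraries. The 10 receptors Ccr2, Ccr3, Ccr4, Ccr7, Ccr8, Ccr9, Cxcr3, Cxcr4, Cxcr5 and Cxcr6 were matched by gene symbol in both the raw count tables and the TPM tables, which list 53278 genes, and all 10 passed the filter on low counts in both experiments. In the stimulation experiment, ILC2s from 4 female B6 mice were left unstimulated, and those of another 4 received IL-33, an alarmin released by damaged epithelium, for 24 h at 20 ng/mL. In the Blimp-1 experiment, ILC2s from 3 female ControlIL7RaCre mice (Control) and 3 age-matched female Blimp-1IL7RaCre mice (Blimp-1-deficient) were activated for 72 h with IL-33 and IL-25 (20 ng/mL of each) and, by the study's methods though not its labels, IL-2, so the Controls carry the Cre and every library of this experiment comes from activated cells. The cells were sorted from whole lung as live, lineage-, CD90.2+, CD3-. The labels give each library as 1 mouse, while figure legends of the study describe sorting samples of pooled animals, so the number of animals behind a library is uncertain. The Cre follows the IL7Rα gene, which is active from lymphoid progenitors on, so the deletion is not particular to ILC2s and reaches other innate lymphoid cells as well as lymphocytes of the T, B and NK lineages. The unstimulated cells are called ex vivo in one place and cultured without IL-33 in another, and if they were not cultured, effects of IL-33 and of culture cannot be told apart.

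Chemokine receptors are G protein-coupled receptors that direct leukocytes along gradients of small secreted chemokines. They signal through inhibitory G proteins, are desensitized by receptor kinases and arrestins, and are named for the class of chemokine they bind. The set of receptors on a lymphocyte is part of how it is held in a tissue, leaves it or reaches a site of inflammation, and ILC2s are known as largely tissue-resident cells that can also be recruited from the bone marrow and the gut.

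Total counts per library lay between 10470125 and 32849428 for the stimulation experiment and between 13570188 and 76448945 for the Blimp-1 experiment. The shallowest library of each experiment also stood apart from its group. The SD across genes of the log2 ratio to the other libraries of its group was 1.80 to 1.87 for IL-33 stimulated replicate 3 and 1.71 to 1.78 for Control replicate 2, and at most 0.511 for any pair of the remaining libraries. In Control replicate 2, 7 loci (CT010467.1, Gm23935, Gm26917, Lars2, Mir6236, Gm15564 and mt-Rnr2) took 76.8% of the counts and left 3150795 counts for all other genes, and its summed epithelial and stromal markers stood at 3582 CPM against 210.2 and 315.2 CPM in the other Controls. CPM are counts per 1000000 by edgeR's TMM library sizes. The upper limit for a gene without a count, taken as 3 counts, was 0.296 CPM in IL-33 stimulated replicate 3, 0.731 CPM in Control replicate 2 and at most 0.127 CPM elsewhere, for counting error only. The receptors are therefore compared over all libraries and without these 2 libraries. The deleted gene Prdm1, which encodes Blimp-1, measured 75.2, 92.8 and 74.0 CPM in the Controls and 14.6, 11.5 and 11.4 CPM in the Blimp-1-deficient libraries (log2 fold change -2.68, SE 0.15, edgeR adjusted p = 0.00441). ILC2 markers such as Gata3, Il1rl1 and Thy1 were abundant in unstimulated cells (1016, 2441 and 745.3 CPM), while the marker Ptgdr2, the prostaglandin D2 receptor CRTH2, stood at only 0.298 CPM. Thy1, which encodes the sort marker CD90, fell to 129.9 CPM after IL-33 (log2 fold change -2.52, adjusted p = 9.14e-06). After IL-33, 16.1% of all genes tested fell and 16.2% rose, or 29.7% and 27.5% without IL-33 stimulated replicate 3. Of the 15 ILC2 markers, 9 fell and 4 rose, with or without that replicate. Those that rose were the cytokine genes Il13 (6.68), Il5 (4.98) and Areg (3.36) and the IL-2 receptor chain Il2ra (0.58), and the sum of the list was 8889 to 10071 CPM in unstimulated and 29055 to 47883 CPM in stimulated libraries. In the Blimp-1 experiment the sum was 13012 to 22112 CPM in Controls and 14145 to 18704 CPM without Blimp-1, and 0 of 14 tested passed in edgeR over all libraries (4 higher and 3 lower at an unadjusted p below 0.05), while 4 were higher and 5 lower without Control replicate 2. Of all genes, 6.17% were higher and 5.78% lower at that unadjusted p. Without Control replicate 2, 8.25% passed as higher and 5.72% as lower.

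Of the 10 receptor genes, 7 lie on mouse chromosome 9 (GRCm38), and 4 of these, Ccr9, Cxcr6, Ccr3 and Ccr2, lie in a block of 435 kb (chr9:123678439-124113557) that holds 9 protein-coding genes in all. Ccr4 (chr9:114490316-114504916), Ccr8 (chr9:120092114-120094906) and Cxcr5 (chr9:44511787-44561877) lie elsewhere on the chromosome. Ccr7 is on chromosome 11 (chr11:99144196-99155077), Cxcr4 on chromosome 1 (chr1:128588199-128592293) and Cxcr3 on chromosome X (chrX:101731535-101734269). RefSeq start regions (GRCm38.p6, 250 bases before to 50 after the annotated start) were matched by symbol for 8 of the 10 genes, all but Ccr7 and Cxcr5. They are shown for 4 receptors that responded differently to IL-33: Ccr4, which showed the largest rise, Ccr9, which showed the largest fall, and the most abundant receptors, Ccr2 and Cxcr6, of which Ccr2 fell and Cxcr6 did not pass the test in either direction. Capitals mark matches on either strand to 5 short motifs, AGATAA for factors of the GATA family, TGANTCA (AP-1), GGGA and CC with any 4 bases between them (NF-kB), ACTTTC (Blimp-1) and TGTGGT (RUNX), and a match on the reverse strand appears as its reverse complement.

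Ccr4, chr9:114496495-114496794, minus strand: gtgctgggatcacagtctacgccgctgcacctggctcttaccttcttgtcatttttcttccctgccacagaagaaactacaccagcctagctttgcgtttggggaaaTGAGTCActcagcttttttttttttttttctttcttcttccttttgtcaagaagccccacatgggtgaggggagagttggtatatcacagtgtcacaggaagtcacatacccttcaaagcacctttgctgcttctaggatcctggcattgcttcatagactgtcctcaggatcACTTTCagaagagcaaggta
Ccr9, chr9:123766961-123767260, plus strand: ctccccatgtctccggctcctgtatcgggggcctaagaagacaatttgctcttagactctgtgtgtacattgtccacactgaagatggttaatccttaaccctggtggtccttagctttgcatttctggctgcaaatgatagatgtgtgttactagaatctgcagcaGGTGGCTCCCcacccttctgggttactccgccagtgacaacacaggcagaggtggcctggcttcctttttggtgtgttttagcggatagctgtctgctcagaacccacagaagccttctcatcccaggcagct
Ccr2, chr9:124101933-124102232, plus strand: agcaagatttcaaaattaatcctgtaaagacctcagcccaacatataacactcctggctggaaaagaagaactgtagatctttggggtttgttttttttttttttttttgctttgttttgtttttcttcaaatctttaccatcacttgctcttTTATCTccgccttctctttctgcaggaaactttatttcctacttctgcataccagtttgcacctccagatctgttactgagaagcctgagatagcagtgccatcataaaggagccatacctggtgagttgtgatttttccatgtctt
Cxcr6, chr9:123806227-123806526, plus strand: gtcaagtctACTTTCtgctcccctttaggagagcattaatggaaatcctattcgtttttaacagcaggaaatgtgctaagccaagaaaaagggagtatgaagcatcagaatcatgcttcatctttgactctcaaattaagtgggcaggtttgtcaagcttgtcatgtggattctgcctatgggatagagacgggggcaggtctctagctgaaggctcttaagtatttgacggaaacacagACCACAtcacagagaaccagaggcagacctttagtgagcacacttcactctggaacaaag

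In these 4 windows the Ccr4 region held an AP-1 match at -143 and a Blimp-1 match at +30 from the start, the Ccr9 region an NF-kB match at -83, the Ccr2 region a GATA match at -97, and the Cxcr6 region a Blimp-1 match at -241 and a RUNX match at -10, with no overlaps between matches. Over all 8 windows, GATA matches were found in 3 (Ccr2, Ccr3, Ccr8), AP-1 in 2 (Ccr3, Ccr4), NF-kB in 3 (Ccr3, Ccr8, Ccr9), Blimp-1 in 2 (Ccr4, Cxcr6) and RUNX in 2 (Cxcr3, Cxcr6), while the Cxcr4 window held none of these letters. Among the 32851 start regions of the same length in the reference, 11.2%, 7.81%, 20.7%, 14.3% and 16.8% held a match to these motifs, in the same order. A match is a run of letters and was not tested for binding. Offsets count from the RefSeq start. For Ccr9 and Ccr4 this start lies well inside the GENCODE span and not at its first base (chr9:123678439 for Ccr9 and chr9:114504916 for Ccr4).

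A pair of receptors made up most of the chemokine receptor transcripts of unstimulated lung ILC2s. Cxcr6, the receptor for CXCL16 that marks tissue-resident lymphocytes, was the most abundant per length at 1324 ± 33.5 TPM, followed by Ccr2, the receptor for CCL2 known for the exit of monocytes from bone marrow, at 951.1 ± 108.3 TPM (SD, n = 4 each). Together they held 89.8% ± 1.53 of the summed TPM of the 10 receptors. Ccr8, a receptor for CCL1 and CCL8 typical of type 2 and regulatory T cells, followed at 156.9 ± 19.7 TPM and Ccr4, the receptor for CCL17 and CCL22 on Th2 and skin-homing T cells, at 52.7 ± 8.18 TPM. Next came Cxcr4, the CXCL12 receptor that retains cells in bone marrow, at 16.9 ± 2.80 TPM and Ccr9, the CCL25 receptor of gut-homing lymphocytes, at 15.7 ± 1.83 TPM. The ranges of these last receptors overlapped. Cxcr5, the CXCL13 receptor of B cell follicles, at 8.07 ± 2.07 TPM and Cxcr3, the receptor for CXCL9 and CXCL10 on type 1 lymphocytes, at 4.79 ± 1.11 TPM also overlapped. Ccr7, which guides cells to lymph nodes along CCL19 and CCL21, stood at 2.01 ± 0.33 TPM, and Ccr3, the eotaxin receptor of eosinophils, was the lowest at 0.940 ± 0.318 TPM.

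The order changed with IL-33. In the 4 stimulated libraries Cxcr6 stayed at the top at 1105 ± 142.4 TPM. Ccr4 was now level with Ccr2, at 270.2 ± 51.1 and 314.0 ± 57.1 TPM with overlapping ranges, above Ccr8 at 133.9 ± 30.8 TPM. Ccr9 was the lowest of the 10 at 0.148 ± 0.092 TPM, below Cxcr5, Ccr3 and Cxcr3, whose neighbouring ranges overlapped at means of 2.56, 1.601 and 1.38 TPM. The share of Ccr2 in the summed TPM was 37.5% ± 3.00 in unstimulated and 17.1% ± 2.24 in stimulated libraries, that of Ccr4 2.09% ± 0.37 and 14.6% ± 1.15, and that of Cxcr6 52.3% ± 1.99 and 60.1% ± 2.07. The ratio of Ccr4 to Ccr8 within a library, which no scaling between libraries can move, was 0.304 to 0.387 in unstimulated and 1.77 to 2.31 in stimulated libraries, and that of Ccr4 to Ccr2 was 0.0396 to 0.0722 and 0.713 to 1.15. These shares are per length. By counts, Ccr2 with its 6760 exonic bases against 1931 for Cxcr6 would hold 67.1% of the receptor counts of unstimulated cells and Cxcr6 26.8%.

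**Figure D1:**
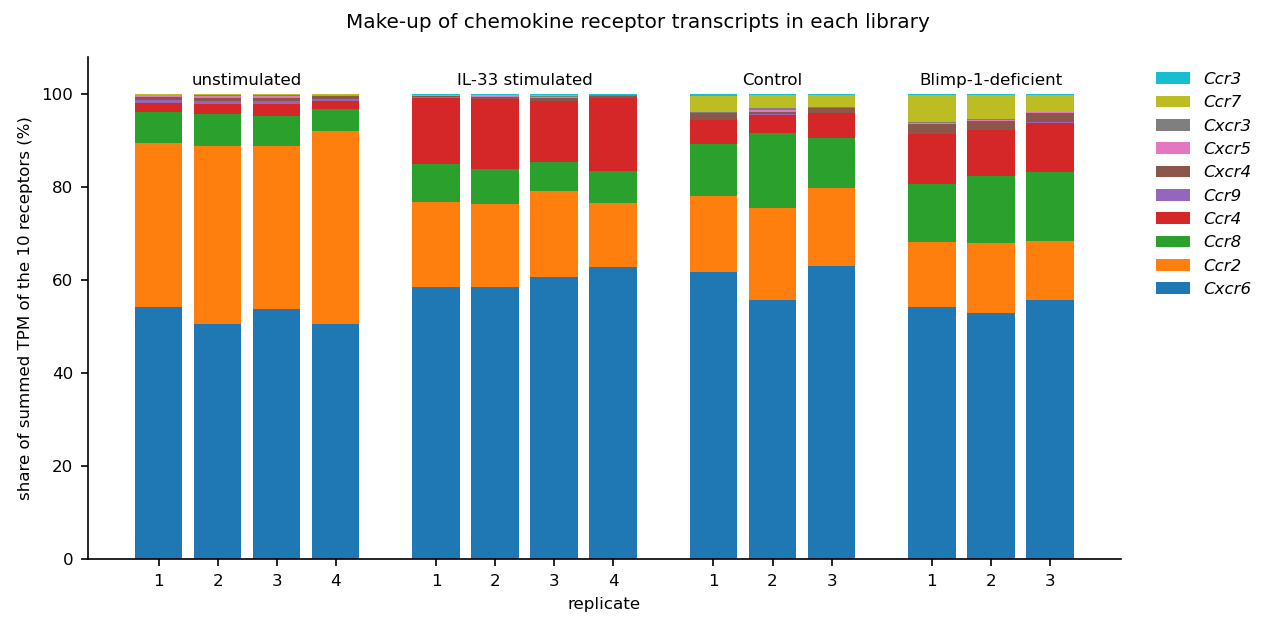
Share of each receptor in the summed TPM of the 10 receptors (%, y axis), 1 bar for each of the 14 libraries (x axis, replicate within group). The band of Ccr4 is wider in the stimulated than in the unstimulated libraries, at 13.1% to 15.8% against 1.64% to 2.52%, and the band of Ccr2 narrower.

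In the cells activated for 72 h, Control replicates 1 and 3 had 928.8 and 929.2 TPM of Cxcr6, 246.1 and 245.8 TPM of Ccr2, 168.1 and 159.4 TPM of Ccr8 and 77.6 and 77.8 TPM of Ccr4. These 4 receptors came in the same order as in unstimulated cells. They were followed by Ccr7 at 53.8 and 37.9 TPM, Cxcr4 at 20.6 and 15.1 TPM and Ccr3 at 4.63 and 4.01 TPM. Cxcr3, Cxcr5 and Ccr9 were the lowest, at means of 2.12, 0.906 and 0.200 TPM. Control replicate 2 held 34.8 TPM for all 10 receptors together against 1503 and 1472 TPM, with 93.9% of its TPM on the 7 loci. Scaled to the TPM outside these loci it was 567.0 against 1539 and 1489, still lower. Of its receptor TPM, Cxcr6 held 55.8% against 61.8% and 63.1% in the other Controls, Ccr2 19.8% against 16.4% and 16.7%, and Ccr8 16.1% against 11.2% and 10.8%. In the Blimp-1-deficient libraries the order was Cxcr6 (819.0 ± 19.3 TPM), Ccr2 and Ccr8 with overlapping ranges (210.0 ± 18.8 and 207.9 ± 18.5 TPM), Ccr4 (157.2 ± 7.45), Ccr7 (74.7 ± 17.6), Cxcr4 (31.6 ± 2.02), Cxcr5 (3.74 ± 0.93), Cxcr3 (1.94 ± 0.39), Ccr3 (1.37 ± 0.26) and Ccr9 (0.0690 ± 0.0054; SD, n = 3 each). The tables of the 2 experiments were normalized separately and the cells differ in cytokines, time and strain, so levels were not tested between them.

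**Figure D2:**
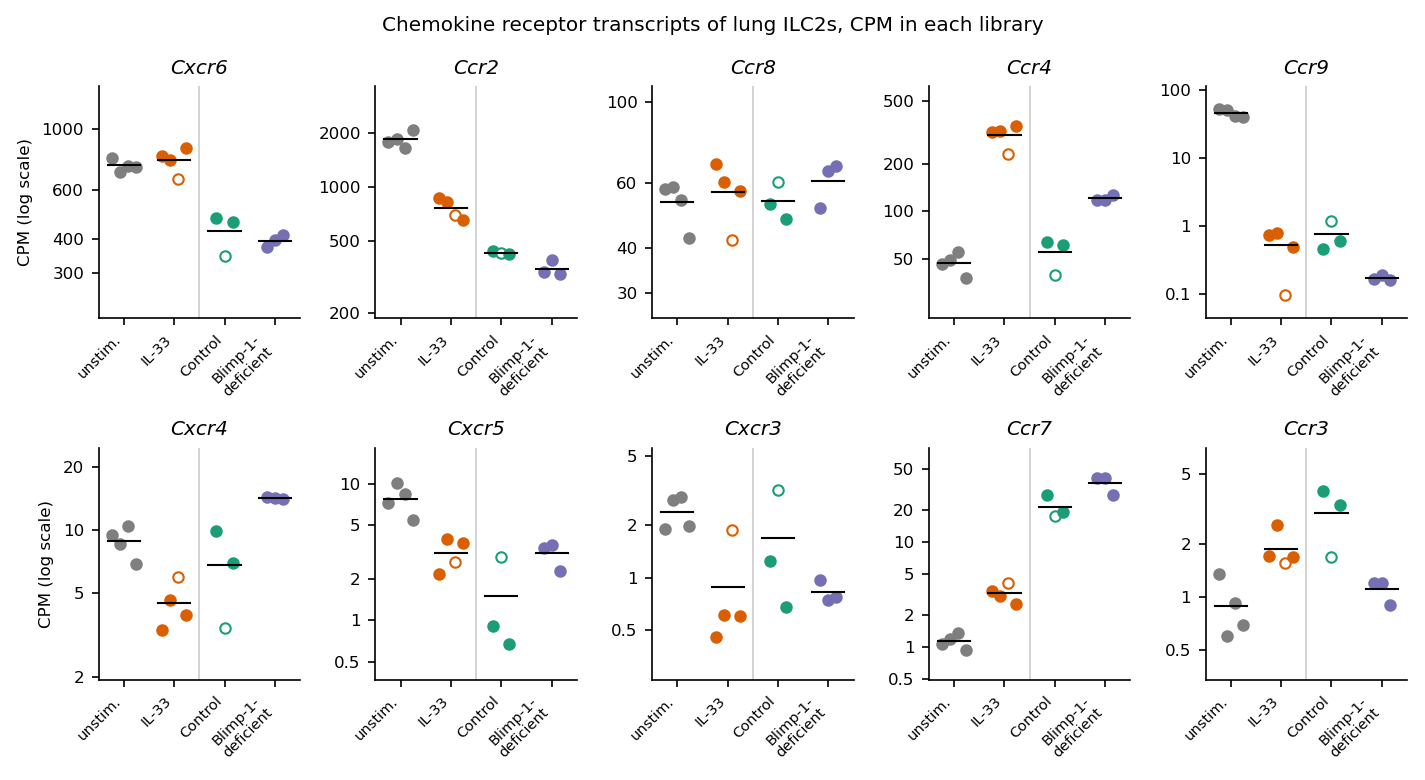
CPM of each receptor (y axis, log scale, with its own range in each panel) in each library of the 4 groups (x axis). Points are libraries, lines are group means, and open points are IL-33 stimulated replicate 3 and Control replicate 2. The stimulated points lie wholly below the unstimulated ones for Ccr9 and Ccr2 and wholly above them for Ccr4, with the highest at 346.0 CPM and the highest unstimulated one at 55.2 CPM.

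To determine which receptors changed with IL-33, stimulated and unstimulated ILC2s were compared by edgeR's quasi-likelihood test over 15466 genes (n = 4 per group, adjusted p below 0.05). Ccr3, Ccr4 and Ccr7 rose and Ccr2, Ccr9, Cxcr3, Cxcr4 and Cxcr5 fell, while Ccr8 and Cxcr6 did not pass the test. Thus 3 of 10 receptors were higher and 5 lower, where 16.2% of all genes tested were higher and 16.1% lower, or 32.3% in either direction. The CPM of the groups did not overlap for the same 8 receptors, against 37.9% of all genes. Without IL-33 stimulated replicate 3 these 8 receptors passed in the same directions. The background was then 27.5% higher, 29.7% lower and 57.2% in either direction, and 58.7% of genes had ranges that did not overlap. The median log2 fold change of the 10 receptors was -0.46, beside 0.06 for all genes tested.

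Ccr9 changed most. It had 52.8, 51.7, 42.2 and 40.2 CPM in the unstimulated libraries and 0.756, 0.810, 0.0985 and 0.495 CPM in the stimulated libraries, where the last values rest on 23, 25, 1 and 14 counts. Every stimulated library was far below every unstimulated one. The log2 fold change was -6.31 (SE 0.44, adjusted p = 4.41e-05), 79.4-fold lower, and -6.07 (67.2-fold lower, adjusted p = 1.63e-08) without stimulated replicate 3, the library with a single count. Part of the Ccr9 annotation is shared with other genes: 21.5% of its exonic bases lie in exons of AC165425.1, Gm17200 and Slc6a20a, mostly on the opposite strand. The SMART-seq v4 and Nextera XT kits do not mark strand, so reads of Ccr9 and of these genes cannot be told apart there.

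Ccr4 rose most. It had 46.5, 49.0, 55.2 and 37.9 CPM in unstimulated and 315.1, 320.1, 228.8 and 346.0 CPM in stimulated libraries. The lowest stimulated library, replicate 3, was still above every unstimulated library. The log2 fold change was 2.68 (SE 0.16, adjusted p = 2.5e-05), 6.42-fold higher, and 2.80 without that replicate. Ccr8, which like Ccr4 is typical of type 2 lymphocytes, had 58.0, 58.7, 54.1 and 42.6 CPM in unstimulated and 67.6, 60.4, 42.1 and 57.0 CPM in stimulated libraries. These groups overlapped, with a log2 fold change of 0.09 (95% interval -0.28 to 0.46, adjusted p = 0.685), and of 0.21 (adjusted p = 0.128) without replicate 3.

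The abundant receptors differed from each other. Ccr2 was reduced from 1800.0, 1858, 1669 and 2095 CPM in unstimulated to 876.3, 831.9, 701.3 and 657.8 CPM in stimulated libraries, and the groups were well apart. Its log2 fold change was -1.27 (SE 0.12, adjusted p = 0.000201), 2.42-fold lower, and -1.23 without stimulated replicate 3. Cxcr6 had 787.6, 702.4, 734.8 and 730.9 CPM in unstimulated and 802.6, 772.0, 660.9 and 857.3 CPM in stimulated libraries. Here the groups overlapped, with a log2 fold change of 0.07 (95% interval -0.15 to 0.28, adjusted p = 0.610). Without stimulated replicate 3 the log2 fold change of Cxcr6 was 0.13 (adjusted p = 0.0753). Under library size alone or TPM, where the median of all genes moved to between -0.10 and -0.31, Cxcr6 and Ccr8 moved with it and stayed within 0.06 of it, and neither passed the test.

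Among the less abundant receptors, Cxcr5 had 7.19, 10.05, 8.37 and 5.45 CPM in unstimulated and 2.17, 3.92, 2.66 and 3.68 CPM in stimulated libraries. All stimulated libraries were lower, with a log2 fold change of -1.32 (SE 0.28, adjusted p = 0.00838), and -1.25 (adjusted p = 0.00217) without replicate 3. Ccr7 rose from 1.08, 1.20, 1.36 and 0.945 CPM to 3.45, 3.05, 4.04 and 2.55 CPM, without overlap (log2 fold change 1.51, SE 0.25, adjusted p = 0.00237, and 1.40, adjusted p = 0.000299, without replicate 3). Cxcr4 had 9.48, 8.53, 10.5 and 6.90 CPM in unstimulated and 3.35, 4.63, 6.01 and 3.93 CPM in stimulated libraries. The fall was -0.99 on the log2 scale (SE 0.24, adjusted p = 0.0144) and -1.15 (adjusted p = 0.000378) without stimulated replicate 3, and it missed the threshold without unstimulated replicate 1 or 2 (adjusted p = 0.0701 and 0.0638).

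Calls for Cxcr3 and Ccr3 rested on few counts. Cxcr3 had 1.91, 2.78, 2.89 and 1.99 CPM in unstimulated libraries and 0.460, 0.616, 1.87 and 0.602 CPM in stimulated libraries, or 14 to 19 counts each. Replicate 3 was the highest stimulated library and nearly reached the lowest unstimulated one. The log2 fold change was -1.48 (SE 0.48, adjusted p = 0.0458) with it and -2.09 (SE 0.27, adjusted p = 0.000105) without it, and the call was lost when any of the other 7 libraries was left out (adjusted p 0.0940 to 0.153). Ccr3 had 1.35, 0.601, 0.935 and 0.693 CPM in unstimulated libraries and 1.71, 2.59, 1.58 and 1.70 CPM in stimulated libraries, or 16 to 80 counts. The stimulated libraries were higher by 1.08 on the log2 scale (SE 0.34, adjusted p = 0.0400), and by 1.17 (adjusted p = 0.0104) without replicate 3. The call was lost when any of 6 other libraries was left out (adjusted p 0.0725 to 0.108).

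**Figure D3:**
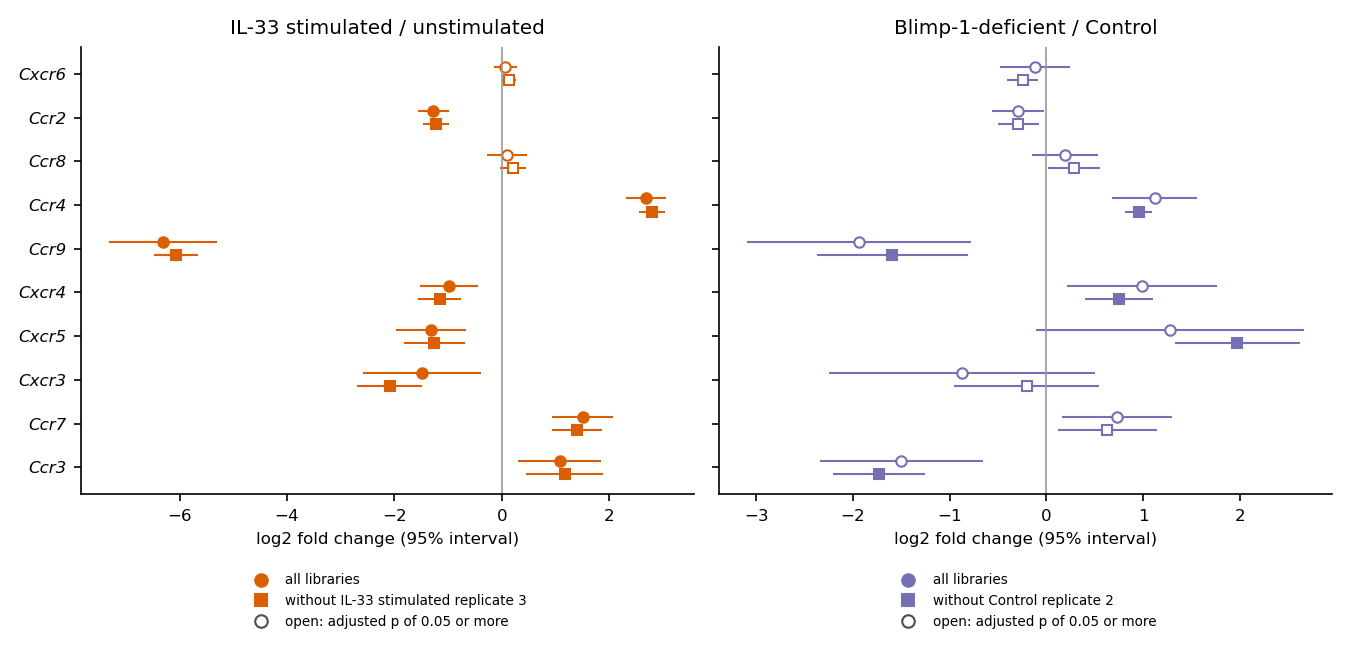
Log2 fold change of each receptor (x axis) with its 95% interval, for IL-33 stimulated against unstimulated (left) and Blimp-1-deficient against Control (right, on a different scale). Circles use all libraries, squares leave out IL-33 stimulated replicate 3 or Control replicate 2, and filled symbols have an adjusted p below 0.05. Filled circles appear for 8 receptors on the left and for none on the right, where 5 squares are filled.

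Markers of other cells moved with stimulation too. The 12 T cell markers summed to 314.4 to 348.5 CPM in unstimulated and 89.8 to 151.1 CPM in stimulated libraries. Of the 12, 7 fell, beside 16.1% of all genes, with the largest changes in Trbc2 (117.4 to 32.2 CPM) and Cd3g (35.7 to 12.2 CPM). Lat (119.6 to 60.6 CPM) and Trbc2 carried most of the sum. Trbc1 averaged 25.5 CPM in unstimulated libraries, and Cd3d, Cd3e, Cd4 and Trac 2.79, 6.83, 5.45 and 4.71 CPM. None of the 12 was at 0 in an unstimulated library. The 8 mast cell and basophil markers summed to 305.4 to 372.3 and 128.4 to 185.7 CPM, with Ms4a2 and Prss34 at 0 throughout. Kit carried most of that sum (317.4 ± 27.0 and 162.0 ± 23.5 CPM), Cpa3 had 10.4 ± 2.86 and 0.0259 ± 0.0337 CPM, and the other 6 markers each averaged below 1 CPM. The 4 ILC3 markers summed to 12.4 to 21.9 and 4.50 to 19.1 CPM. Of 3 tested, Il22 rose (0.578 to 7.23 CPM) and 1 fell (median log2 fold change -0.79). The 6 eosinophil markers, which bear on Ccr3, summed to 3.10 to 5.55 CPM in unstimulated libraries and 0.990 to 13.5 CPM in stimulated libraries, with the highest value in replicate 3. The other stimulated libraries had 2.59, 1.55 and 0.990 CPM. Of 3 tested, 0 passed over all libraries, and 3 fell without stimulated replicate 3 (median -1.26), beside 29.7% of all genes. The 11 epithelial and stromal markers summed to 447.7 to 705.2 and 254.6 to 441.6 CPM, and the 13 myeloid markers to 91.2 to 206.1 and 46.6 to 129.5 CPM. The 8 NK cell and ILC1 markers, which bear on Cxcr3, summed to 4.75 to 7.11 and 2.94 to 7.54 CPM. The 8 B cell markers, which bear on Cxcr5 and Ccr7, summed to 14.9 to 17.4 and 18.1 to 20.9 CPM. The part of such cells in the changes of the receptors was not tested, and fewer cells of a type and less RNA per cell cannot be told apart in bulk libraries.

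The neighbours in the chromosome 9 block did not change together. Ccr9 and Lztfl1, a ciliary transport gene within the span of Ccr9 on the opposite strand (-1.44, SE 0.08, adjusted p = 1.8e-05), were lower after IL-33. Cxcr6, which starts 22.1 kb beyond the end of Ccr9, and Fyco1, a gene of autophagosome transport that overlaps Cxcr6 (-0.12, adjusted p = 0.669), did not pass the test. Xcr1, the receptor for XCL1 (0.43, adjusted p = 0.00697), and Ccr1, a receptor for CCL3 and CCL5 (6.29 ± 2.25 to 36.5 ± 4.06 CPM, log2 fold change 2.54, adjusted p = 0.000273), were higher. Ccr3 rose and Ccr2 fell at a distance of 70.3 kb.

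**Figure D4:**
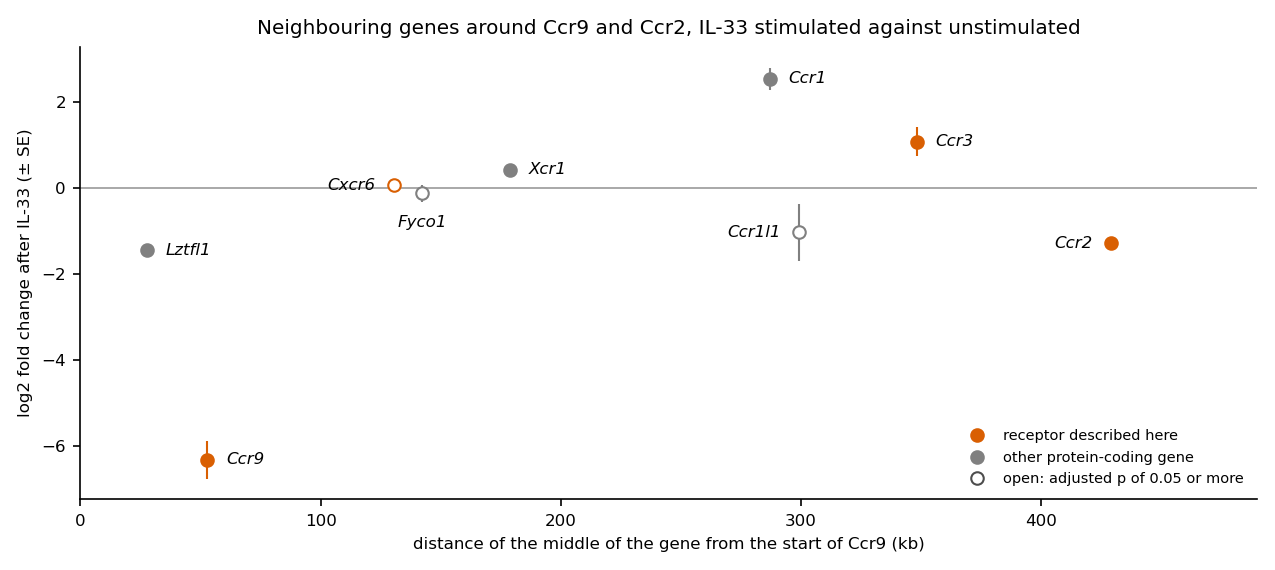
Log2 fold change after IL-33 with its SE (y axis) for the 9 protein-coding genes of the block, against the distance of the middle of each gene from the start of Ccr9 in kb (x axis). Orange points are the receptors described here, and open points did not pass the test. Values run from -6.31 for Ccr9 to 2.54 for Ccr1.

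The genes whose log2 CPM followed a receptor most closely over the 8 libraries, among 10810 genes with a mean of at least 5 CPM, were Ttc7, Nrm and D630039A03Rik for Ccr9 (Pearson's r = 0.999, 0.999 and 0.998), Hbegf, Abcb1b and Ldha-ps2 for Ccr4 (0.998, 0.997 and 0.997) and Pask, Nxpe3 and Dnah8 for Ccr2 (0.998, 0.995 and 0.995). For Cxcr3 they were Zfp777, March8 and Tns2 (0.995, 0.988 and 0.987), for Ccr7 St3gal5, Ica1 and Ttc19 (0.986, 0.984 and 0.983), and for Cxcr4 Selenop, Tgfbr1 and Man1c1 (0.986, 0.986 and 0.980). For Ccr3 they were Polr3k, Tcea1 and Rtcb (0.979, 0.972 and 0.970) and for Cxcr5 Reck, Cd96 and Ift52 (0.970, 0.969 and 0.966). These r describe 8 libraries that fall into 2 groups, so a gene that differs between the groups in the same direction as a receptor tends to score high.

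The libraries also held transcripts for ligands of these receptors. Of 19 ligand genes, 12 could be tested, and 5 rose and 1 fell after IL-33. Of all genes tested, 16.2% rose and 16.1% fell, or 27.5% and 29.7% without IL-33 stimulated replicate 3. The median log2 fold change of the tested ligands was 1.01, beside 0.06 for all genes. Cxcl10, a ligand of Cxcr3, rose from 1.36 ± 0.48 to 44.1 ± 19.5 CPM (log2 fold change 5.02, SE 0.48, adjusted p = 0.000191), and Cxcl9, another ligand of Cxcr3, had 0.0532 ± 0.0599 and 2.18 ± 1.15 CPM (adjusted p = 0.00227). The Ccr4 ligand Ccl17 rose from 0.810 ± 0.560 to 4.38 ± 2.83 CPM (2.43, SE 0.63, adjusted p = 0.0198) and the Ccr2 ligand Ccl2 from 14.7 ± 1.35 to 34.1 ± 7.65 CPM (1.22, SE 0.18, adjusted p = 0.00142). The fifth was Ccl7, also a ligand of Ccr2 (5.58 ± 1.55 to 11.9 ± 2.08 CPM, adjusted p = 0.0107), and the ligand that fell was Cxcl12, that of Cxcr4 (64.1 ± 13.2 to 37.7 ± 2.00 CPM, -0.77, adjusted p = 0.00384). Ccl7 and Cxcl12 were named after their values were seen. Stromal cells are a known source of Cxcl12. Of the 11 epithelial and stromal markers, 7 could be tested, and Epcam, Cdh5 and Col1a2 fell and Pecam1 rose (5 fell and 1 rose without IL-33 stimulated replicate 3). The median log2 fold change of the 7 was -0.87. Col1a2 had 146.6 ± 45.2 and 50.2 ± 6.28 CPM (-1.55, adjusted p = 0.00138) and Pecam1 62.4 ± 15.1 and 124.1 ± 13.3 CPM (0.99, adjusted p = 0.00311). The stromal markers Col1a1 (227.8 and 105.2 CPM), Pdgfra (22.1 and 12.1 CPM) and Dcn (8.05 and 8.98 CPM) did not pass over all libraries. The part of stromal cells in the ligand values was not tested. The ligand of Ccr9, Ccl25, had 3.63 ± 1.25 and 3.29 ± 1.68 CPM (adjusted p = 0.850), and that of Cxcr6, Cxcl16, 2.74 ± 0.83 and 3.73 ± 0.50 CPM (adjusted p = 0.223), also named after their values were seen.

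Other genes of the pathway were described by lists, beside 16.2% of all genes tested that were higher and 16.1% lower after IL-33. Without stimulated replicate 3 these shares were 27.5% and 29.7%. Of 14 other chemokine receptors, 8 were tested and 2 were higher (Ccr1 and Xcr1, above) and none lower, while 1, Ccr6 at -0.79 on the log2 scale, was lower without stimulated replicate 3 (adjusted p = 0.0377; named after its value was seen). Of 19 receptors for other attractants and egress signals, 16 were tested, 1 was higher and 7 lower (median -0.30). S1pr3, a sphingosine-1-phosphate receptor, rose from 1.27 ± 0.21 to 4.80 ± 1.71 CPM (1.91, SE 0.31, adjusted p = 0.00231). Cmklr1, the chemerin receptor (0.866 ± 0.257 to 0.0587 ± 0.0565 CPM, adjusted p = 0.0022), Hrh4, a histamine receptor (0.886 ± 0.486 to 0.108 ± 0.077 CPM, adjusted p = 0.0113), and P2ry14, a receptor for nucleotide sugars (11.6 ± 2.19 to 5.05 ± 1.46 CPM, adjusted p = 0.0107), fell. Of 30 genes for signalling and desensitization, all tested, 3 rose and 12 fell (median -0.33). Without stimulated replicate 3, 5 rose and 17 fell, where more of all genes passed as well. Rgs10 (-1.67), Rgs3 (-1.33) and Rgs18 (-0.88), regulators that end G protein signalling, fell with adjusted p of 0.000143, 0.000344 and 0.00287. Of the other regulators of this family in the list, Rgs14 fell (-0.83, adjusted p = 0.000386), Rgs16 rose (0.77, adjusted p = 0.00983) and Rgs1, Rgs2 and Rgs19 did not pass. Without stimulated replicate 3, Rgs2 fell (-0.985, adjusted p = 0.000177). Elmo1, which links receptors to Rac activation with Dock2, rose by 0.91 (SE 0.07, adjusted p = 7.35e-05), and Dock2 fell by 0.53 (adjusted p = 0.0206). Of the tyrosylprotein sulfotransferases and the co-receptor Cd74, 3 genes in all, Tpst2 fell (60.2 ± 0.80 to 39.2 ± 8.48 CPM, adjusted p = 0.0177) and Cd74 rose (12.2 ± 7.48 to 37.8 ± 6.82 CPM, adjusted p = 0.0126).

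Blimp-1 deficiency was examined in the activated cells (n = 3 per group). By edgeR's quasi-likelihood test over 17335 genes, 0 of the 10 receptors passed an adjusted p of 0.05 in either direction, where 0.45% of all genes were higher and 0.306% lower, or 0.756% together. At an unadjusted p below 0.05 there were 6, with 3 higher and 3 lower, against 6.17% and 5.78% of all genes. DESeq2 called Ccr4 higher and Ccr3 and Ccr9 lower, against 3.22% and 3.19% of all genes it tested. The CPM of the groups did not overlap for 5 receptors, Ccr4 and Cxcr4 higher and Ccr2, Ccr3 and Ccr9 lower, against 22.6% of all genes. Without Control replicate 2, which leaves 2 Controls, 3 receptors rose (Ccr4, Cxcr4 and Cxcr5) and 2 fell (Ccr3 and Ccr9). The background was then 8.25% higher and 5.72% lower, or 14% in either direction. Ranges did not overlap for 7 receptors without that library, against 50.5% of all genes. The median log2 fold change of the receptors was 0.04 with and without it.

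Ccr4 had 64.0, 39.5 and 61.6 CPM in the Controls and 118.1, 118.6 and 126.0 CPM in the Blimp-1-deficient libraries. All Blimp-1-deficient libraries were higher, with a log2 fold change of 1.12 (95% interval 0.68 to 1.56, adjusted p = 0.0561), 2.17-fold, and of 0.95 (SE 0.06, adjusted p = 0.000441), 1.94-fold, without Control replicate 2. The share of Ccr4 among the receptors was 4.81% ± 0.72 in Control and 10.4% ± 0.46 in Blimp-1-deficient libraries (SD, n = 3 each), and the ratio of Ccr4 to Ccr8 within a library was 0.247 to 0.488 in Controls and 0.693 to 0.875 without Blimp-1, again without overlap.

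Ccr9 was low in this experiment, but close to the limit of 3 counts only in Control replicate 2. It had 38, 5 and 58 counts in the Controls (0.458, 1.22 and 0.613 CPM) and 14, 15 and 16 counts in the Blimp-1-deficient libraries (0.169, 0.194 and 0.166 CPM). The highest CPM, in Control replicate 2, rests on 5 counts. The log2 fold change was -1.94 (SE 0.48, adjusted p = 0.169), and -1.59 (SE 0.33, adjusted p = 0.0227) without that library. Ccr3 had 335, 7 and 318 counts in the Controls (4.04, 1.70 and 3.36 CPM) and 100, 94 and 88 counts without Blimp-1 (1.21, 1.21 and 0.911 CPM). All Blimp-1-deficient libraries were lower, by -1.50 (SE 0.35, adjusted p = 0.142) and by -1.73 (SE 0.20, adjusted p = 0.00331) without Control replicate 2.

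Cxcr5 had 0.904, 2.92 and 0.676 CPM in the Controls and 3.41, 3.57 and 2.29 CPM in the Blimp-1-deficient libraries. The groups overlapped only through Control replicate 2, whose value rests on 12 counts. The log2 fold change was 1.28 (SE 0.58, adjusted p = 0.459) with it and 1.98 (SE 0.28, adjusted p = 0.00568), 3.93-fold, without it. Cxcr4 had 9.94, 3.41 and 7.003 CPM in the Controls and 14.3, 14.1 and 14.1 CPM without Blimp-1, with no overlap (0.99, SE 0.32, adjusted p = 0.288, and 0.75, SE 0.15, adjusted p = 0.0197). Ccr7 had 28.4, 17.5 and 19.2 CPM in the Controls and 41.2, 40.5 and 27.9 CPM without Blimp-1, where the lowest Blimp-1-deficient library fell within the Control range (0.73, SE 0.24, adjusted p = 0.282, and 0.63, adjusted p = 0.0999).

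The abundant receptors differed little. Ccr2 had 443.5, 429.9 and 425.2 CPM in the Controls and 337.2, 394.3 and 328.5 CPM in the Blimp-1-deficient libraries, without overlap. Its log2 fold change was -0.29 (95% interval -0.57 to -0.02, adjusted p = 0.378) and the same size without Control replicate 2 (adjusted p = 0.0785). Cxcr6 had 478.2, 345.6 and 459.1 CPM in the Controls and 372.3, 396.1 and 412.8 CPM without Blimp-1 (-0.12, 95% interval -0.48 to 0.24, adjusted p = 0.820). Without Control replicate 2 the ranges of Cxcr6 no longer overlapped (-0.24, adjusted p = 0.0574). Ccr8 had 52.6, 60.6 and 47.9 CPM and 51.3, 65.0 and 66.8 CPM (0.19, 95% interval -0.15 to 0.53, adjusted p = 0.678, and 0.29, adjusted p = 0.138, without that library). Cxcr3 had 1.25, 3.17 and 0.676 CPM in the Controls and 0.967, 0.748 and 0.776 CPM without Blimp-1 (-0.87, adjusted p = 0.636), and its log2 fold change was -0.20 (adjusted p = 0.707) without Control replicate 2, whose value rests on 13 counts. Cxcr6, Ccr8 and Cxcr3 overlapped between the groups over all libraries. When TPM or library size alone set the scale, the median of all genes moved from -0.02 to between 0.43 and 1.69 and the receptors moved with it. Relative to that median, Ccr2 was -0.27 over all libraries, -0.25 by library size alone and -0.26 by TPM rescaled without the 7 loci, but 0.13 on log2(TPM + 1). Cxcr6 was -0.10, -0.17, -0.07 and 0.36 in the same order.

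Among marker lists in this experiment, the 12 T cell markers summed to 102.2 to 110.0 CPM in Controls and 105.9 to 115.2 CPM without Blimp-1. The 8 B cell markers, which bear on Cxcr5 and Ccr7, summed to 16.0 to 21.1 and 21.4 to 27.6 CPM. The 11 epithelial and stromal markers summed to 481.7 to 678.2 CPM without Blimp-1, above Controls 1 and 3 and below Control replicate 2. Of 9 tested, 0 passed over all libraries (3 higher at an unadjusted p below 0.05), and 4 were higher without Control replicate 2. The 4 ILC3 markers summed to 1.95 to 5.63 CPM in Controls and 11.2 to 26.5 CPM without Blimp-1, with no overlap. All 3 that could be tested were higher at an unadjusted p below 0.05, and 1 passed after adjustment (2 without Control replicate 2). The 8 mast cell and basophil markers also did not overlap (136.5 to 150.8 and 164.4 to 211.4 CPM), Kit carried most of the sum (144.0 and 185.5 CPM), and 0 of 3 tested passed (1 higher at an unadjusted p below 0.05), with Mcpt4 at 0 throughout. The 6 eosinophil markers, which bear on Ccr3, summed to 0 to 3.57 and 0.845 to 3.19 CPM, and all 6 were at 0 in Control replicate 2. The 8 NK cell and ILC1 markers, which bear on Cxcr3, summed to 9.10 to 11.4 and 3.48 to 11.6 CPM, and of 7 tested, only Eomes passed (2.28 to 0.363 CPM), with 2 lower without Control replicate 2. The 13 myeloid markers summed to 39.6 to 133.2 and 34.7 to 118.8 CPM. Of 11 tested, 1 was lower over all libraries, and 4 were higher and 1 lower without Control replicate 2. Of all genes, 0.45% were higher and 0.306% lower over all libraries, and 8.25% and 5.72% without Control replicate 2. The part of these cells in the receptor values was not tested.

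Of the lists, 0 of 16 ligands tested passed in the all-library edgeR comparison (6 higher and 0 lower at an unadjusted p below 0.05), and 6 were higher without Control replicate 2 (medians 0.88 and 0.98, beside -0.02 and 0.01 for all genes). Of all genes, 0.45% were higher and 0.306% lower after adjustment, and 6.17% and 5.78% at an unadjusted p below 0.05. Without Control replicate 2 the shares after adjustment were 8.25% and 5.72%. Cxcl10 had 4.05 ± 3.74 and 30.1 ± 8.28 CPM (adjusted p = 0.138, and 0.00791 without that library) and Cxcl12 41.1 ± 12.5 and 50.2 ± 7.77 CPM (adjusted p = 0.678 and 0.0545). Of the other chemokine receptors, 0 of 10 passed (1 higher and 2 lower at an unadjusted p below 0.05), and 1 was higher and 3 lower without Control replicate 2. Ccr1 had 123.9 ± 27.9 and 78.0 ± 6.98 CPM (adjusted p = 0.206 and 0.00219). Gpr183, an oxysterol receptor that positions lymphocytes, was the single attractant or egress receptor of 15 to pass, and rose from 27.7 ± 2.76 to 46.7 ± 2.28 CPM (log2 fold change 0.74, SE 0.10, adjusted p = 0.0441), while 3 were higher and 4 lower without Control replicate 2. None of the 30 signalling genes passed (7 higher and 0 lower at an unadjusted p below 0.05), and 7 were higher without Control replicate 2. The most abundant, Gnai2, an inhibitory G protein subunit, and Coro1a, an actin regulator, differed by 0.12 and -0.03 (adjusted p = 0.785 and 0.982). Tpst2 had 38.9 ± 2.89 and 37.4 ± 1.74 CPM and Cd74 10.5 ± 7.06 and 30.4 ± 17.3 CPM (adjusted p = 0.895 and 0.370), and Cd74 rose without Control replicate 2 (adjusted p = 0.0347).

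Set side by side, the log2 fold change of Ccr4 was 2.68 with IL-33 and 1.12 without Blimp-1, that of Ccr9 -6.31 and -1.94, that of Ccr2 -1.27 and -0.29, that of Ccr7 1.51 and 0.73 and that of Cxcr3 -1.48 and -0.87. Cxcr4 was -0.99 with IL-33 and 0.99 without Blimp-1, Cxcr5 -1.32 and 1.28, and Ccr3 1.08 and -1.50. These values with IL-33 passed the test and those without Blimp-1 did not pass over all libraries. Ccr8 (0.09 and 0.19) and Cxcr6 (0.07 and -0.12) passed in neither. The comparisons share no libraries, and the difference between them was not tested.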

How the data were processed

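The tables of 14 RNA-seq libraries of sorted lung ILC2s were used, with every column of values. SMART-seq v4 and Nextera XT libraries, without molecular identifiers, were trimmed by the authors (cutadapt), mapped to GRCm38 (HISAT2 in the methods, Bowtie2 in the submitters' processing notes) and counted per gene (Subread). The authors deposited raw counts, whole numbers without normalization, and TPM, the counts divided by gene length and scaled to 1000000 per library.

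Each experiment was fitted alone with edgeR 4.0.16 in R 4.3.3 (TMM, filterByExpr, quasi-likelihood test, no term for replicate), two-sided, with Benjamini-Hochberg adjustment over all genes tested and a threshold of 0.05. Intervals are 95%. Levels of different genes were compared per length, in TPM. DESeq2 1.42.0 and limma 3.58.1 on log2(TPM + 1) or log2(TPM + 0.1) were alternatives, beside other size factors, other filters, counts without the 7 loci, a block for the replicate number and fits that left out single libraries. The fit was tested on simulated data. Figures were drawn with matplotlib 3.10.9.

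The receptors, gene lists and tests were chosen with earlier results of these data known. Named genes are the receptors, Prdm1, up to 4 genes of each list past the threshold with the largest change or, where none passed, up to 2 with the most CPM, and the 3 genes most alike to each called receptor. Genes of the marker lists, further Rgs genes, Dock2 and the chromosome 9 neighbours Lztfl1 and Fyco1 were named after their values were seen. Some genes of the lists are not reported here. Coordinates and exon overlaps come from GENCODE vM21, start regions from RefSeq.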

Additional observations from a re-analysis of the deposited data

Results flagged for a closer look

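In each group of 4 libraries, the CPM and TPM of the 10 receptors were tested for 1 library far from the others (Dixon's test at 95%), which flags about 1 in 20 groups by chance. Of 40 such groups, 5 were flagged. Ccr3 stood at 2.59 CPM in IL-33 stimulated replicate 2, against 1.58 to 1.71 CPM in the other stimulated libraries. Cxcr3 stood at 1.87 CPM and 2.83 TPM in IL-33 stimulated replicate 3, against 0.460 to 0.616 CPM and 0.770 to 1.009 TPM in the others. Ccr4 stood at 193.6 TPM in the same library, against 293.5 to 298.5 TPM. Cxcr6 stood at 1274 TPM in unstimulated replicate 2, against 1336 to 1344 TPM in the other unstimulated libraries.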

How the results depend on the processing

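After IL-33, Ccr2, Ccr4, Ccr7, Ccr9 and Cxcr5 passed in the same direction under each of 19 alternatives, Cxcr4 under 17 of 19, Cxcr3 under 9 of 18 and Ccr3 under 4 of 18. Leaving out 1 library gave 2 to 3 receptors higher and 3 to 5 lower. The count of 3 lower came without unstimulated replicate 1 or 2. The log2 fold change of Ccr8 ran from -0.0032 to 0.21 on leaving out 1 library. Over all genes, leaving out 1 library gave 1852 to 4328 higher and 1820 to 4666 lower, the highest without IL-33 stimulated replicate 3. The sign of Ccr8 turned with library size alone (-0.073), limma on TPM (-0.25 with a pseudocount of 1, with or without the filter, -0.25 with 0.1 and -0.23 rescaled without the 7 loci), edgeR without the 7 loci (-0.032) and without IL-33 stimulated replicate 1 (-0.0032). The sign of Cxcr6 turned with the same settings except the last (-0.10, -0.27, -0.27, -0.27, -0.26 and -0.051). For Blimp-1-deficient against Control, DESeq2 called 1 receptor higher and 2 lower (556 and 550 of all genes), a mean count of at least 50 gave 1 of 9 higher (149, or 1.11%, of all genes), and leaving out 1 library gave 0 to 3 higher and 0 to 2 lower (0 to 1483 and 0 to 1027 of all genes). The nonzero receptor counts on leaving out 1 library came without Control replicate 2. The sign of Ccr2 turned with library size alone (0.19) and limma on TPM (1.42 with or without the filter, 1.48 with 0.1 and 0.17 rescaled), that of Cxcr6 with the same settings (0.28, 1.65, 1.68 and 0.36), that of Cxcr3 with limma on TPM (0.38 with or without the filter and 0.86 with 0.1) and that of Ccr3 with limma on log2(TPM + 0.1) (0.0042). The median of all genes moved from 0.06 to between -0.10 and -0.31 after IL-33, and from -0.02 to between 0.43 and 1.69 without Blimp-1, under library size alone and limma on TPM. Relative to that median, Ccr8 and Cxcr6 lay between -0.022 and 0.058 after IL-33 under these settings and without the 7 loci, and of the reversed signs without Blimp-1 those of Ccr2 and Cxcr6 under log2(TPM + 1) remained (0.13 and 0.36, or 0.31 and 0.54 with no filter). The cause of the other changes was not tested. By counts in place of TPM, 27 of 40 shares moved by more than 1 SD, with Ccr2 at 67.1%, 40.1%, 43.3% and 35.8% in unstimulated, IL-33 stimulated, Control and Blimp-1-deficient libraries and Cxcr6 at 26.8%, 40.4%, 42.4% and 40.0%. The design text assigns 8 mice to the unstimulated and stimulated groups, and not every same-numbered pair correlated above 0.1 (-0.145, 0.217, 0.282 and 0.177 after IL-33, and -0.133, -0.134 and 0.122 for Blimp-1), so the numbers were not taken to pair the libraries. With the replicate block, 2 receptors were higher and 5 lower after IL-33, with Ccr3 lost (adjusted p = 0.113), beside 11.7% and 12.3% of all genes, and without Blimp-1 0 receptors and 0 of all genes passed. Depth limits Ccr9, Ccr3 and Cxcr3 in IL-33 stimulated replicate 3 (1, 16 and 19 counts) and Ccr3, Ccr9, Cxcr3, Cxcr4 and Cxcr5 in Control replicate 2 (5 to 14 counts).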
